A study of Mus musculus with 8 samples.

Results

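The red cell membrane and skeleton genes measured here were Slc4a1, Ank1, Epb41, Epb42, Rhag, Rhd, Kel and Tmod1. They were taken by gene symbol from a table of read counts for mouse peripheral blood, which held all 8 among its 21878 symbols. Blood RNA came from 4 control mice and 4 mice restrained for 6 hours. All were female wild-type C57BL/6 mice aged 6 to 8 weeks, and the restrained animals sat in a ventilated tube with no food or water. The control littermates stayed in their cage, also without food or water, so both groups were fasted. The comparison of the stress group with the control group asked how acute restraint changes gene expression in blood cells. Each sample is named below by its group and number, and the labels do not say whether equal numbers pair mice.

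The membrane of the red cell is held in shape by a meshwork of spectrin and actin on its inner face. The anion exchanger band 3, encoded by Slc4a1, spans the membrane and is tied to spectrin through ankyrin-1 (Ank1), with protein 4.2 (Epb42), the Rh-associated glycoprotein (Rhag) and the Rh protein (Rhd) in the same complex. A second anchor, the junctional complex, contains protein 4.1 (Epb41) and the actin cap tropomodulin-1 (Tmod1), while the Kell blood group protein (Kel) is an endopeptidase on the outer face. Mature red cells have no nucleus and make no RNA, so in blood these transcripts are carried mainly by reticulocytes, the youngest circulating red cells. Some members, Epb41 among them, are also made in other cells. In whole blood, a lower number of cells of one type and less RNA per cell cannot be told apart.

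The 8 genes lie on 6 chromosomes of GRCm38, the build named in the submitters' processing notes as mm10, with gene limits from GENCODE M21. Slc4a1 is on the minus strand at chr11:102348824-102366203, Ank1 on the plus strand at chr8:22974844-23150497, and Epb42 on the minus strand at chr2:121017891-121037072. Rhag is on the plus strand at chr17:40811126-40840754. Chromosome 4 holds Rhd on the plus strand at chr4:134864536-134896172, Epb41 on the minus strand at chr4:131923413-132075321 and Tmod1 on the plus strand at chr4:46038935-46116032. Kel is on the minus strand at chr6:41686330-41704339. Tmod1 shares 1287 of its 3946 exon bases with Tstd2 on the other strand, which had 56 to 507 counts per sample. Whether counting used strand is not given in the sources used here, so reads in that overlap cannot be assigned to one of the genes. No exact stretch longer than 28 bases was shared by a member with any of 21 related genes.

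The bases before the start of 4 members are shown because the factor GATA1, which drives red cell development, binds GATA letters and these genes are made in the same cells. The RefSeq table of GRCm38.p6 has windows of 250 bases upstream of the start for 6 of the 8 members, Slc4a1 and Ank1 being without an entry. Capitals mark GATAA or GATAG with an A or T in front, on either strand, each line running 5′ to 3′ on the strand of the gene and ending before its GENCODE start:
Rhd, chr4:134864286-134864535 (+): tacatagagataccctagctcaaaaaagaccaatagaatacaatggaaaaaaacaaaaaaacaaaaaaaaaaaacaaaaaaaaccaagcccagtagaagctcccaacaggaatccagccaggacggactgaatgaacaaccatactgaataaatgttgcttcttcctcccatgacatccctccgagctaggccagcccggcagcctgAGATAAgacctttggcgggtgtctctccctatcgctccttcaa
Rhag, chr17:40810899-40811125 (+): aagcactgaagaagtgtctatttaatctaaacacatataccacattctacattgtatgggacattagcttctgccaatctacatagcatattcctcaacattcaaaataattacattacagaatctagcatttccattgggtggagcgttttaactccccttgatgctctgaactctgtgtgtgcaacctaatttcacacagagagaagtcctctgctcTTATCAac
Kel, chr6:41704340-41704575 (-): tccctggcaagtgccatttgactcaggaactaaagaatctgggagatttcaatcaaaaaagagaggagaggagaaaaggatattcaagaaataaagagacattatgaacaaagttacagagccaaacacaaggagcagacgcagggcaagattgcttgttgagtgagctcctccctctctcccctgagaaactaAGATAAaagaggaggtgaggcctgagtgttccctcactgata
Epb41, chr4:132075322-132075563 (-): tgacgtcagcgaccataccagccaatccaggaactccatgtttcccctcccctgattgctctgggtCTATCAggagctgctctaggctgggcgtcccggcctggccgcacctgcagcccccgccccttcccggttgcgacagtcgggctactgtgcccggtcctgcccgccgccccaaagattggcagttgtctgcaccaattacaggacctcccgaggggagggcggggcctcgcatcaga
Such letters stood in at least 1 window of 5 of the 6 members, namely Epb41, Epb42, Kel, Rhag and Rhd, and not in that of Tmod1. Counted by window it was 5 of 8, as Epb41 has several. Across the table, 26.5% of 32851 windows held them. The letters CCACACCC and, as an alternative, CCCCACCC, bound by factors of the KLF family, were in none of the member windows and in 11.8% of all windows. These matches describe letters and were not tested as binding sites.

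The libraries differed in how much of the count went to haemoglobin, and this bears on every comparison of the members. Total counts were 31471145 to 39014775 in the control samples and 25978683 to 29655725 in the stress samples. Haemoglobin genes took 51.9% to 63.8% of the counts in control and 61.2% to 75.5% in stress. What remained outside haemoglobin was 11409246 to 18771951 counts in control and 6352711 to 11007593 in stress, lowest in stress sample 3. Counts were therefore read on 4 library scales. The main one was TMM, a scaling that sets the bulk of genes level between samples. The others were the total count, the summed haemoglobin count, and the summed count of a list of other erythroid genes. Of that last sum the gene Alas2 alone made up 560 per 1000 counts in stress sample 1 to 609 in control sample 3. CPM, the counts per 1000000 counts of the library, refers to TMM scaling throughout.

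On the TMM scale all 8 members had higher mean CPM in the stress group, with log2 fold changes from 0.73 to 1.33 and a median of 0.96. None passed an adjusted p of 0.05 in edgeR's quasi-likelihood test over 11718 genes, against 10.4% of those genes called higher and 3.69% called lower. None passed the stricter thresholds of the study either, an absolute log2 fold change over 1 with an adjusted p under 0.01, against 1.69% called higher and 0.0171% lower. Without adjustment, p was under 0.05 for 5 members, all with higher values in stress: Ank1, Epb42, Rhag, Rhd and Kel. Of the 11718 genes tested, 2129 were higher and 1524 lower at that cut. The median log2 fold change over all genes tested was -0.02, and 5522 of 11718 were positive. No member had all its stress samples above all its control samples, which was so for 11.1% of genes tested, nor all below, as 9.87% had.

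Slc4a1, the band 3 anion exchanger, had 357, 232, 124 and 520 CPM in control samples 1 to 4 and 718, 442, 541 and 381 CPM in stress samples 1 to 4. Control sample 3 was far below the rest, while control sample 4 lay above the stress samples 2 and 4, so the groups overlapped. The mean was 308 ± 171 CPM in control and 521 ± 147 in stress (SD, n = 4 each). The log2 fold change was 0.76, with a 95% interval of -0.04 to 1.55 (edgeR, adjusted p = 0.181).

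Ank1, which links band 3 to spectrin, had 24.4, 15.8, 8.55 and 39.6 CPM in the control samples and 69.8, 38.5, 45.0 and 34.8 CPM in the stress samples. The order of the samples within each group was that of Slc4a1, with control sample 4 again inside the stress range. For Ank1 the log2 fold change was 1.10, with an interval of 0.27 to 1.92 (edgeR, adjusted p = 0.0726). Epb42, whose product steadies the same complex, ranged from 8.22 to 44.4 CPM in control and from 33.3 to 75.0 CPM in stress. Its log2 fold change was 1.04, with an interval of 0.13 to 1.94 (edgeR, adjusted p = 0.114).

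The Rh pair were the rarest transcripts by CPM. Rhag, a membrane channel that carries ammonium and is needed for the Rh proteins to reach the surface, had 53, 34, 22 and 36 counts in the control samples and 49, 24, 52 and 52 in the stress samples. A count of 22 has a 95% Poisson interval of 13.8 to 33.3, and one of 52 has 38.8 to 68.2, which cover counting error only. In CPM these were 1.44, 0.658, 0.318 and 1.14 in control and 2.19, 1.11, 3.95 and 1.66 in stress. Stress sample 3 stood highest, and stress sample 2 lay below control samples 1 and 4. Rhag had the largest log2 fold change of the members, 1.33 with an interval of 0.31 to 2.36 (edgeR, adjusted p = 0.0781).

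Rhd, the Rh blood group protein, had 2.80, 1.76, 1.34 and 4.86 CPM in the control samples and 5.17, 4.73, 8.80 and 3.97 CPM in the stress samples. As with Rhag, the highest value was that of stress sample 3, and control sample 4 lay above stress samples 2 and 4. The log2 fold change was 1.09, with an interval of 0.27 to 1.90 (edgeR, adjusted p = 0.0737).

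**Figure D1:**
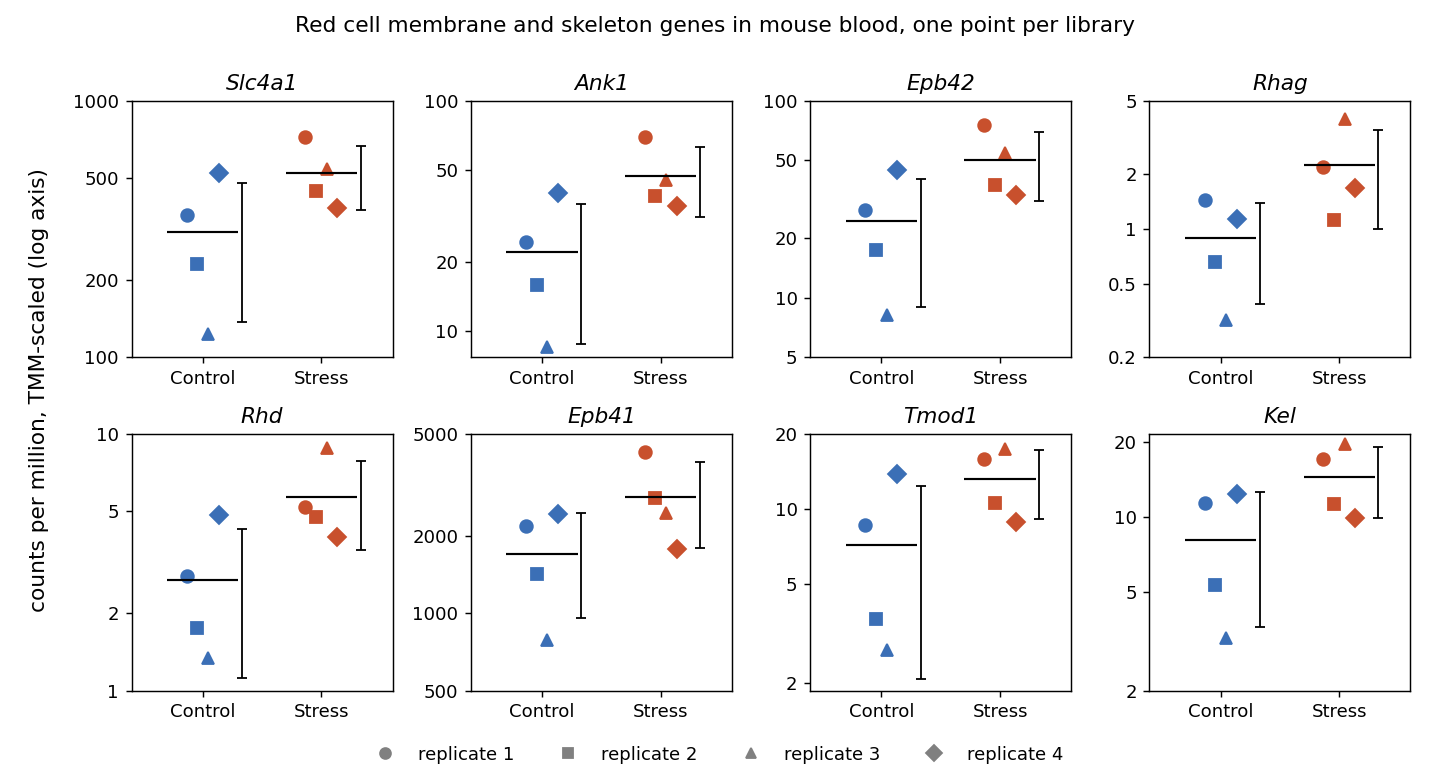
TMM-scaled CPM (log axis) of the 8 genes in each of the 4 control and 4 stress samples, one point per mouse, with the mean as a line and the SD as a bar. In each gene the mean on this scale is higher in stress and the ranges of the groups overlap, with control sample 3 the lowest of all 8 samples.

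Epb41, the protein 4.1 that joins spectrin to actin, was the most abundant member. It had 2183, 1426, 791 and 2434 CPM in the control samples and 4261, 2819, 2465 and 1789 CPM in the stress samples. Stress sample 4 lay below control samples 1 and 4. Its log2 fold change was the smallest of the members, 0.73 with an interval of -0.05 to 1.51 (edgeR, adjusted p = 0.188). Tmod1, which caps the slow-growing end of the short actin filaments, ranged from 2.72 to 13.8 CPM in control and from 8.87 to 17.5 in stress. For Tmod1 the log2 fold change was 0.89, with an interval of -0.05 to 1.84 (edgeR, adjusted p = 0.183).

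Kel ranged from 3.27 to 12.4 CPM in the control samples and from 9.92 to 19.7 CPM in the stress samples, with stress sample 3 the highest. For Kel the log2 fold change was 0.85, with an interval of 0.04 to 1.67 (edgeR, adjusted p = 0.142). The p-values of these comparisons on the TMM scale measure the spread between the mice of these groups.

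The spread among the control samples was wide on the TMM scale. There the highest control sample exceeded the lowest by 3.08-fold for Epb41 to 5.40-fold for Epb42, with a median over the members of 4.37-fold. With total counts as the scale it was 1.82-fold for Epb41 to 3.06-fold for Epb42, and per haemoglobin count 1.55-fold for Epb41 to 2.54-fold for Rhag. For 38 other membrane and skeleton genes the median on the TMM scale was 1.61-fold, with a range of 1.05-fold to 7.22-fold. Among them Sptb ran from 14.5 to 56.6 CPM and Tspo2 from 16.6 to 61.9 CPM in control. A wide control spread was therefore shared by some of the other genes, while their median lay below the lowest member value of 3.08-fold. Among the stress samples the members' ratio of highest to lowest TMM-scaled CPM ran from 1.89-fold for Slc4a1 to 3.55-fold for Rhag. Control sample 4 weighed most on the tests. Without it, Slc4a1 (adjusted p = 0.0385), Ank1 (0.00979), Epb42 (0.0206), Rhd (0.00837) and Tmod1 (0.024) passed an adjusted p of 0.05 in edgeR, against 12.3% of genes called higher in that fit. Ank1 and Rhd also passed the thresholds of the study, which 2.93% of genes did. Without any one of the other samples none of the 8 passed, with 5.35% to 11.5% of genes called higher. DESeq2 called Rhag (adjusted p = 0.0411) and Rhd (0.0334), with 12.2% of genes called higher. The limma-voom test called Ank1 (adjusted p = 0.0354), Rhag (0.0458) and Rhd (0.0265), with 11.6% called higher.

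The size of the difference depended on the library scale. With total counts as the scale, all 8 log2 fold changes stayed positive but ran only from 0.03 for Epb41 to 0.56 for Rhag, with a median of 0.26. On that scale the median over all genes was -0.82, with 0.444% called higher and 49.6% lower at an adjusted p under 0.05. Per haemoglobin count the members' median was 0.07, with 5 of 8 positive, while the median of all genes was -1.04, with 0.162% called higher and 54.3% lower. Per count of the other erythroid genes it was 0.19, with 6 of 8 positive, beside -1.03 for all genes, of which 0.128% were called higher and 41.0% lower. No member passed an adjusted p of 0.05 in edgeR on these 3 scales, nor an unadjusted p under 0.05. Unlike the TMM fit, these fits took the members' variance from all genes tested together. Their intervals and p-values therefore do not measure each member's own spread between mice. On these 3 scales the bulk of genes lay lower in stress, and the members lay closer to 0.

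**Figure D2:**
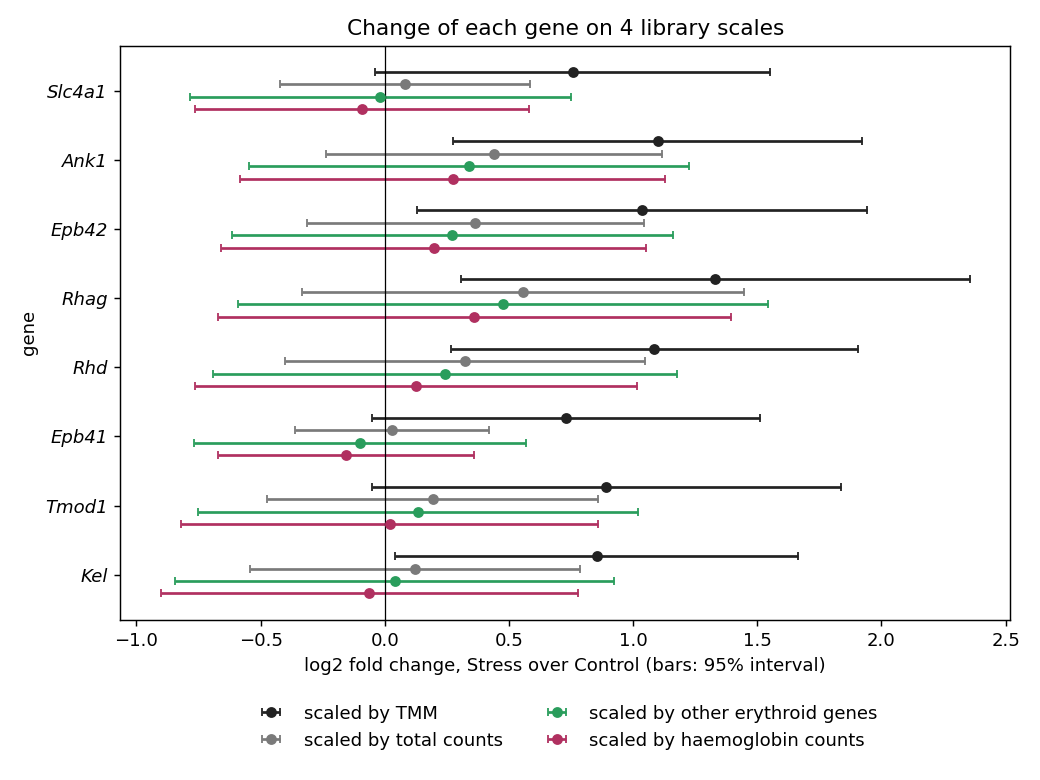
Log2 fold change, stress minus control, of the 8 genes on 4 library scales, with 95% intervals from edgeR as bars. On the scales other than TMM the variance came from all genes together, so those bars do not measure each gene's own spread. The TMM values run from 0.73 to 1.33, and those on the other scales lie nearer to 0 with intervals that include it.

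Scaled to haemoglobin (counts per 1000000 haemoglobin counts), Slc4a1 was 684, 596, 422 and 821 in the control samples and 865, 457, 363 and 684 in the stress samples. The groups covered much the same range, with stress sample 3 the lowest and stress sample 1 the highest of all. The log2 fold change on this scale was -0.09, with an interval of -0.76 to 0.58 (edgeR, adjusted p = 0.830). Epb41 was 4181, 3672, 2703 and 3838 on the haemoglobin scale in control and 5134, 2912, 1655 and 3215 in stress. Again stress samples 3 and 1 were the extremes. Its log2 fold change was -0.16, with an interval of -0.67 to 0.36 (edgeR, adjusted p = 0.613).

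Rhag was 2.76, 1.69, 1.09 and 1.79 on the haemoglobin scale in the control samples and 2.63, 1.15, 2.65 and 2.99 in the stress samples. Here 3 stress samples stood near the highest control sample, and stress sample 2 near the lowest. Its log2 fold change was 0.36, with an interval of -0.67 to 1.39 (edgeR, adjusted p = 0.554). Ank1 had 0.27 on this scale, Epb42 0.20, Rhd 0.13, Tmod1 0.02 and Kel -0.06. With stress sample 3 left out as well, the haemoglobin-scaled log2 fold changes of all 8 were positive, from 0.02 for Kel to 0.47 for Ank1, and Slc4a1 had 0.08 and Epb41 0.06. The groups overlapped for all 8 genes, whereas 0.0427% of genes lay wholly above and 20.0% wholly below.

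**Figure D3:**
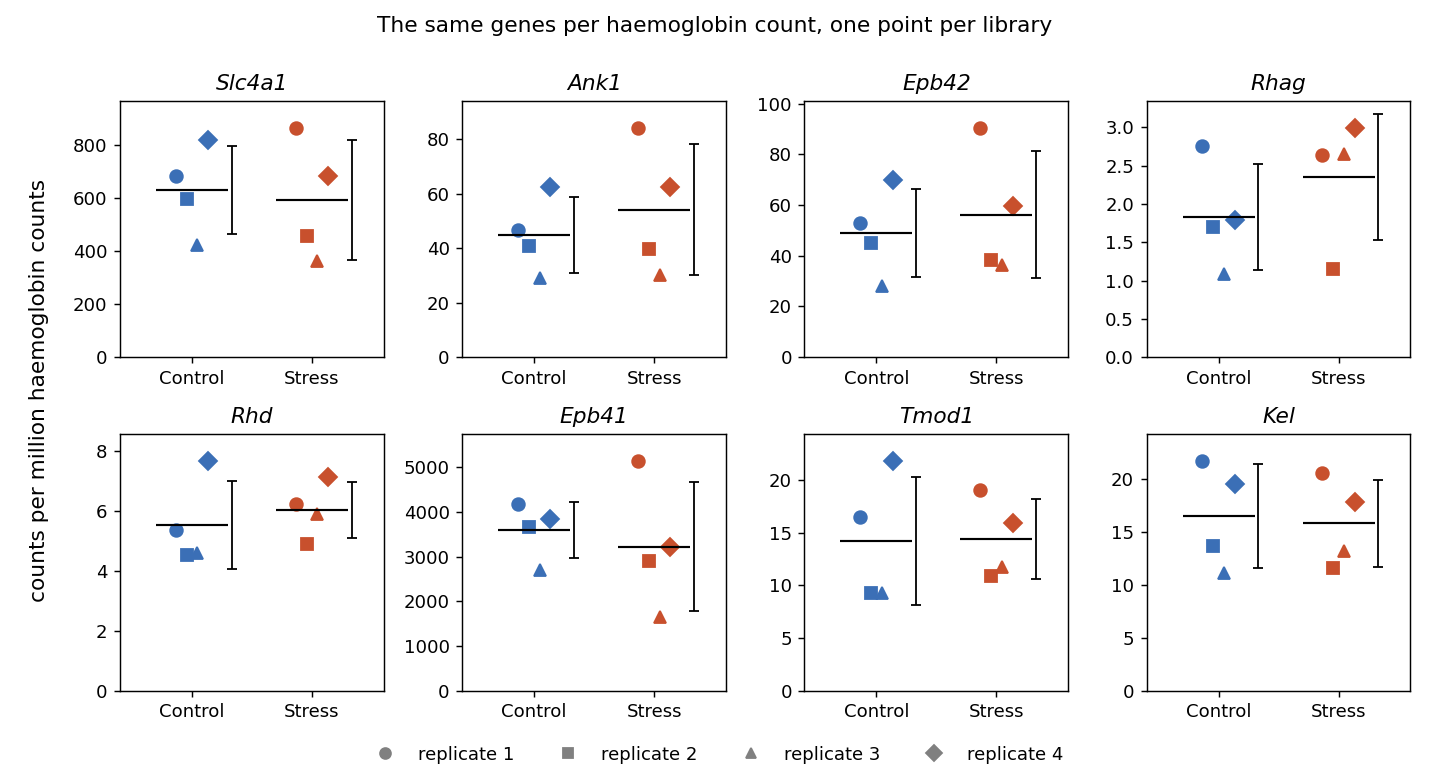
Counts on the haemoglobin scale (counts per 1000000 haemoglobin counts, linear axis from 0) of the 8 genes in each control and stress sample, with the mean as a line and the SD as a bar. The groups overlap in every gene, and stress sample 1 is the highest of all samples for Slc4a1, Ank1, Epb42 and Epb41.

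The members also differed among themselves. Epb41 took 79.3% to 84.2% of the counts of the 8 genes in control and 78.1% to 83.8% in stress. Slc4a1 took 13.2% to 16.9% and 13.1% to 17.2%. The share of Rhd reached 0.279% in stress sample 3 and was at most 0.158% in control, and that of Rhag reached 0.125% in the same sample against at most 0.055% in control. Stress sample 3 also had the highest share of all 8 samples for Kel (0.623%), Tmod1 (0.553%), Epb42 (1.72%) and Slc4a1, while its share of Epb41 was the lowest. All shares divide the same sum, so a low Epb41 count raises the others. The Epb41 count of that sample was 32475, against 54715 to 95551 elsewhere, and its Slc4a1 count of 7132 was also the lowest.

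Per 1000 Slc4a1 counts, Ank1 was 68.4, 68.4, 69.2 and 76.0 in the control samples and 97.2, 87.1, 83.1 and 91.4 in the stress samples. The groups did not overlap, stress being the higher, which held for no other of the 7 ratios to Slc4a1. Of the genes tested, 0.119% lay wholly above and 3.66% wholly below on the same ratio. This ratio was chosen after its values were seen. With Slc4a1 counts as library size, edgeR gave a log2 fold change of 0.35 with an interval of -0.71 to 1.41 (adjusted p = 0.591). That fit took its variance from all genes tested together. Its interval and p therefore do not measure how this ratio varied between mice. Leaving out 1 sample at a time moved the log2 fold change between 0.31 and 0.39. Epb42 was 77.6, 75.5, 66.6 and 85.3 per 1000 Slc4a1 counts in control and 104, 84.3, 99.97 and 87.4 in stress, with stress sample 2 below control sample 4.

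Levels between genes were compared as CPM per kilobase of exon. Epb41 had a mean of 107 in control and 178 in stress on this measure, Slc4a1 63.0 and 106, Epb42 4.52 and 9.21, and Kel 2.91 and 5.23. Below them came Rhd with 1.69 and 3.56, Tmod1 with 1.82 and 3.34, Ank1 with 1.63 and 3.48, and Rhag with 0.379 and 0.952. The order Epb41, Slc4a1, Epb42, Kel was the same in 8 of 8 samples. Rhd, Tmod1 and Ank1 could not be ranked, since Rhd exceeded Tmod1 in 5 of 8 samples and Tmod1 exceeded Ank1 in 4 of 8. Rhag was the lowest in 8 of 8. These levels rest on the union of annotated exons, which for Epb41, Ank1 and other members with many isoforms is longer than a single transcript.

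**Figure D4:**
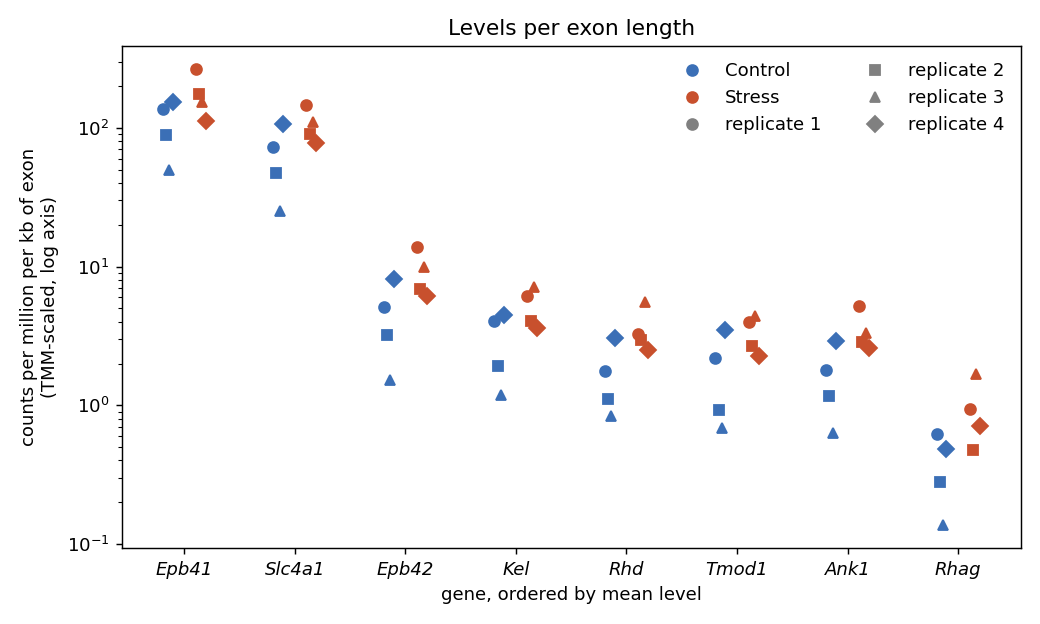
TMM-scaled CPM per kilobase of exon (log axis) of the 8 genes in each control and stress sample, one point per mouse. Epb41 and Slc4a1 lie well above the other 6, and Rhag is the lowest in every sample.

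The 8 genes varied together across the 8 samples. Over the 28 pairs of genes, Pearson's r of log2 CPM ran from 0.77 for Rhag with Epb41 to 1.00 for Slc4a1 with Epb42, with a median of 0.94. Per haemoglobin count it ran from 0.15 for Rhag with Epb41 to 0.97 for Ank1 with Epb42, with a median of 0.74. The points share libraries and a scaling factor, which was 1.01 to 1.77 in control and 0.507 to 1.10 in stress. The genes whose log2 CPM followed the members' mean profile most closely were Smap1, Trim10, Car2, Vopp1 and Nusap1, with r from 0.995 to 0.997 over 8 samples. Car2 encodes a carbonic anhydrase of red cells and Trim10 a protein of maturing erythroid cells. Both are in the list of other erythroid genes, while Smap1, which followed most closely, Vopp1 and Nusap1 are not.

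Of a list of 40 other genes of the red cell membrane and skeleton, 38 could be tested, of which 11 rose and 1 fell at an adjusted p under 0.05 on the TMM scale. Of all genes tested, 10.4% were called higher and 3.69% lower. The median log2 fold change of the listed genes was 0.38, with 31 of 38 positive. Sptb, the beta chain of spectrin, differed by about as much as the members without passing, with a log2 fold change of 0.99 (edgeR, adjusted p = 0.0703). So did the translocator protein Tspo2 of late red cell precursors, with 1.08 (adjusted p = 0.081). Among 14 skeleton and scaffold genes, Tpm1, Mpp1, Stom and Flot1 rose, by 0.86, 1.14, 0.87 and 0.65 on the log2 scale, Tpm1 and Mpp1 being named after their values were seen. Among 24 membrane proteins 7 rose, of which the adhesion receptor Cd44 had a log2 fold change of 0.89 (edgeR, adjusted p = 0.00109), the water channel Aqp1 0.91 (0.00655) and the complement regulator Cd59a 1.05 (0.0133). Cd55, another complement regulator, fell by 0.69 on the log2 scale (edgeR, adjusted p = 0.0065). Which blood cells carried these transcripts was not tested. With total counts as the scale, every member had its lowest control value in control sample 3. For Slc4a1 it was 219 there, against 341 to 524 in the other control samples. Of the genes called, Cd44, Flot1, Xk and Cd55 had their highest control value in that sample, Cd44 with 104 against 80.8 to 92.3. Mpp1, Bsg, Aqp1 and Aqp9 instead had their lowest there. Tpm1, Stom, Gypc and Cd59a were not clearly either. On the total, haemoglobin and erythroid scales 0 of the 38 rose and 9, 11 and 5 fell. Of all genes tested, 49.6%, 54.3% and 41.0% were called lower on these scales, and 0.444%, 0.162% and 0.128% higher. Per haemoglobin count Cd44, Stom, Aqp1 and Flot1 had log2 fold changes of -0.04, -0.08, -0.04 and -0.37.

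**Figure D5:**
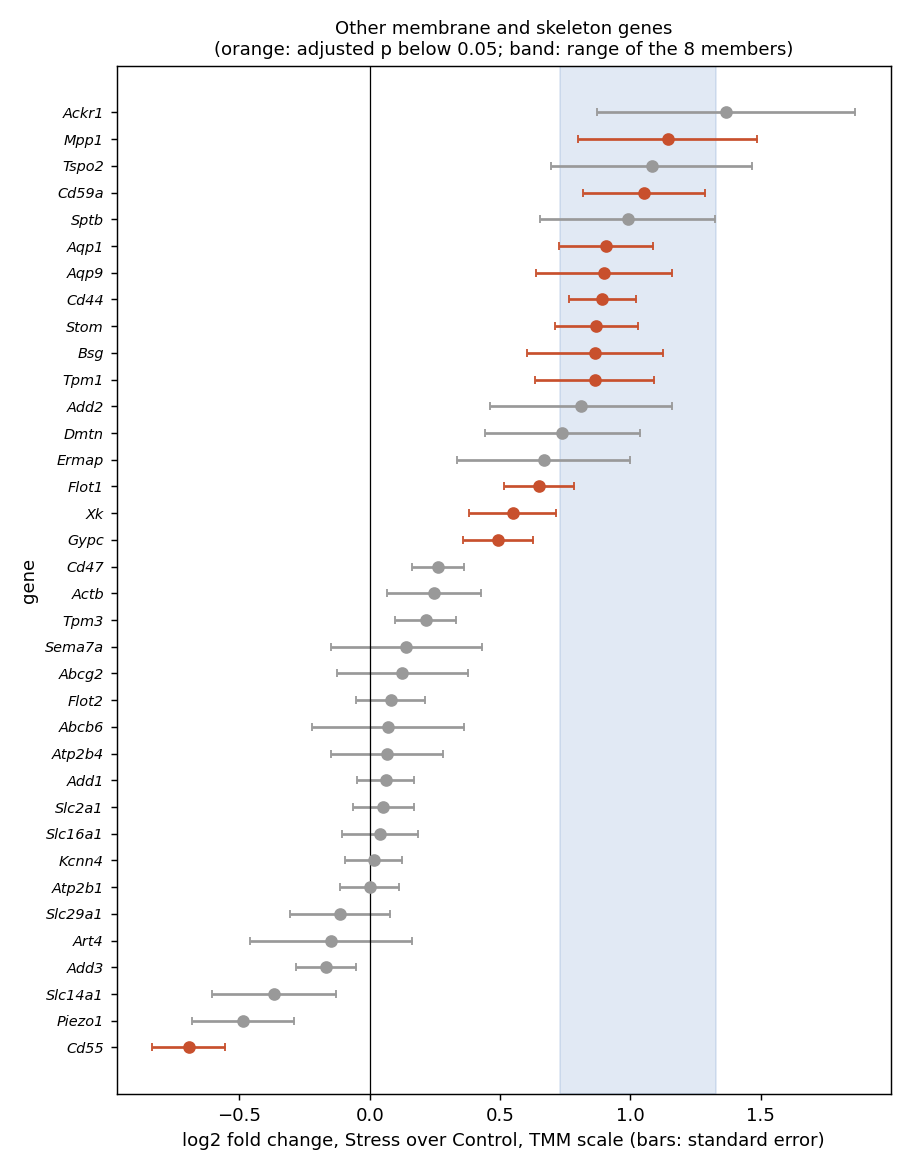
Log2 fold change on the TMM scale, stress minus control, of 36 of the other red cell membrane and skeleton genes with standard errors as bars, orange where the adjusted p in edgeR was under 0.05. The band marks the members' range of 0.73 to 1.33, within which Sptb and Tspo2 lie, as do others such as Mpp1, Cd59a, Aqp1, Cd44 and Stom.

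Markers of other cells differed between the groups as well, with calls made on the TMM scale. There 10.4% of all genes tested were called higher and 3.69% lower. Neutrophil markers rose in 7 of 11 tested, with summed CPM of 194 to 379 in control and 585 to 855 in stress. Monocyte markers rose in 7 of 8 and platelet markers in 10 of 10, the latter with summed CPM of 1514 to 2223 in control and 3352 to 4052 in stress. B cell markers fell in 4 of 8, with summed CPM of 860 to 1080 in control and 611 to 794 in stress. With total counts as the scale the summed levels overlapped for neutrophil markers (343 to 421 in control, 313 to 941 in stress) and platelet markers (2237 to 2686 and 2055 to 3689), and did not for B cell markers (893 to 1916 and 389 to 873). T cell and NK cell markers were called in 0 of 7 and 0 of 6, and markers of immature erythroid cells rose in 2 of 8. On the total scale the summed T cell markers were 305 to 567 in control and 163 to 306 in stress. Haemoglobin genes rose in 2 of 7 tested and other erythroid genes in 7 of 26, with median log2 fold changes of 1.06 and 0.91 beside the members' 0.96. The summed CPM of the other erythroid genes was 14569 to 40367 in control and 32168 to 67451 in stress. With total counts as the scale their sum was 25846 to 40613 in control and 33641 to 43033 in stress. The part of these cell types in the members' values was not tested.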

How the data were processed

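RNA of peripheral blood was sequenced from 4 control and 4 stress mice. The authors aligned reads with HISAT2 and counted them per gene with featureCounts on mm10, per the submitters' processing notes, which give no versions. The annotation, strand setting and filters are not given in the sources used here. The deposited values were raw counts per gene symbol, taken as they stood, and 5948 of 21878 symbols had no count.

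A gene was tested if 4 or more samples had 10 or more counts, which left 11718, all 8 members among them. edgeR 4.0.16 (R 4.3.3) fitted stress against control with TMM scaling and a robust quasi-likelihood test, and p-values were adjusted by Benjamini-Hochberg over all genes tested. The authors used DESeq2 and give no version. Here DESeq2 1.42.0 and limma-voom 3.58.1 were alternatives, beside other scales, count filters, a fit blocked on replicate number and the removal of single samples. The haemoglobin and erythroid scales used the summed counts of those genes as library size. Named genes outside the members were the 5 of the listed genes with the smallest p in each direction and the genes fixed by name, of which some are not reported here.

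The members and lists were chosen with earlier results of these data known. Alternatives leaving out stress sample 3 on the haemoglobin scale and scaling to Slc4a1 were added after seeing the data.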

Additional observations from a re-analysis of the deposited data

Results flagged for a closer look

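Among 68 groups of 4 samples looked at, in which chance sets 1 in 20 apart, 2 had a sample far from the other 3, and neither was that of a member. Cd44 had 109 CPM in stress sample 3, below the 130 to 133 CPM of the other stress samples. Flot1 had 25.2 CPM in the same sample, above 17.6 to 18.8 CPM in the others. Stress sample 3 also had the fewest counts outside haemoglobin, 6352711, whose part in these values was not tested.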

How the results depend on the processing

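At an adjusted p of 0.05, 0 members were higher in the reported fit, 2 with DESeq2, 3 with limma-voom, and 0 to 5 when 1 sample was left out. At the study thresholds leaving out a sample gave 0 to 2, and both upper values came without control sample 4. On the haemoglobin and erythroid scales leaving out a sample called 0 members. Of 160 log2 fold changes of members under alternatives, 145 kept direction and side of the threshold, 10 newly passed it and 5 turned: per haemoglobin count Slc4a1 (-0.091), Epb41 (-0.16) and Kel (-0.062), and per erythroid count Slc4a1 (-0.018) and Epb41 (-0.10). The cause was not tested.

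Of the other 38 genes, 11 rose and 1 fell. The total, haemoglobin and erythroid scales gave 0 higher and 9, 11 and 5 lower, where 49.6%, 54.3% and 41.0% of all genes were called lower. Without a count filter 6 were higher, with 7.10% of genes called higher, and the haemoglobin scale without stress sample 3 again gave 0. Leaving out a sample gave 5 to 17 higher: 5 without control sample 2 or 3, 17 without control sample 4, 6 without stress sample 1 or 2 and 7 without stress sample 3. In those fits 5.35% to 12.3% of all genes were called higher. With a replicate block 6 rose and 0 members were called, with 7.85% of genes called higher. Deviations of same-numbered samples correlated at 0.06, 0.00, -0.04 and -0.16, and those of other pairs at -0.08 to 0.11. These values cannot show whether equal numbers share anything but a label.

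Directions of other named genes turned as follows. Per haemoglobin count the log2 values were -0.041 for Cd44, -0.078 for Stom, -0.039 for Aqp1, -0.37 for Flot1, -0.49 for Gypc, -0.45 for Xk, -0.12 for Add2 and -0.23 for Dmtn. Per erythroid count they were -0.016 for Cd44, -0.028 for Stom, -0.34 for Flot1, -0.45 for Gypc, -0.43 for Xk, -0.044 for Add2 and -0.16 for Dmtn. Per total count they were -0.15 for Flot1, -0.28 for Gypc, -0.22 for Xk and -0.028 for Dmtn. Per haemoglobin count without stress sample 3 they were -0.26 for Flot1, -0.34 for Gypc, -0.20 for Xk and -0.12 for Dmtn. Slc29a1 ran from -0.24 to 0.010 when 1 sample was left out, turning to 0.0013 without control sample 3 and 0.010 without stress sample 4.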
